A study of Mus musculus with 8 samples.

Results

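The collagen genes of the mouse were examined for SMAD4 binding in early limb buds. The members are all protein-coding genes whose symbol in the GENCODE vM1 annotation of mouse build mm9 has the form Col, a type number, a and a chain number, which gave 43 genes among 22350 protein-coding genes on chromosomes 1 to 19 and X. The rule itself uses symbols only, although the family was picked with earlier results of these data known.

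SMAD4 was immunoprecipitated through a 3xFLAG tag that had been inserted at the end of its own coding sequence, so that the embryos of every group carried the tagged allele at the endogenous locus (genotype Smad4Flag, strain NMRI). By the tissue labels, the samples were an E9.5 group of forelimb buds together with trunk, for which the protocol gives E9.75, and an E10.5 group of fore- and hindlimb buds, whereas the source labels name forelimb bud at both stages. Each stage had 2 ChIP samples with the M2 anti-FLAG antibody and 2 input samples without antibody, and about 80 (E9.5) or 100 (E10.5) embryos were pooled per replicate. Forelimb, trunk and hindlimb cells were not separated, and if the tissue labels hold, tissue changed together with stage, so that stage and tissue cannot be told apart. The values are 1 merged list of peaks per stage, with 2073 peaks at E9.5 and 6185 at E10.5. There is therefore no replicate error, the sequencing depth is unknown, no test between conditions was possible, and the absence of a peak does not show that SMAD4 was absent. Peak lists hold no expression values, so the tissue labels could not be checked against marker genes.

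Collagens are the main structural proteins of the extracellular matrix. Their chains wind into triple helices because glycine recurs at regular intervals along the chain, and the helices assemble into fibrils, networks or filaments. Fibrillar collagens build the fibrils of skin, bone (type I) and cartilage (types II and XI), type IV forms the network of basement membranes, type VI forms beaded filaments, and the FACIT collagens decorate the surface of fibrils. In the limb bud, BMP signals that act through SMAD4 are required for the mesenchyme to condense and form cartilage, which is when cartilage collagens such as those of types II, IX and XI are laid down. SMAD proteins contact DNA at the SMAD box CAGAC.

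Since the lists give no summits, the 300 bp around each peak centre were searched on both strands for CAGAC, its longer form CAGACC, the GC-rich site GGCGCC and the palindrome GTCTAGAC. Every CAGACC match also counts as a CAGAC match. GGCGCC and GTCTAGAC contain neither of them, although GTCTAGAC shares the bases AGAC with CAGAC. At E10.5, peaks lay across the 5′ ends of 6 collagen genes, and 5 of these 6 held a CAGAC near the centre, as did 53.2% of all 6185 E10.5 peaks. The peak at Col1a1 held none of the 4 sequences in this window. The matches are shown because these are the only peaks that cover a collagen 5′ end. Each stretch is 30 bases of the mm9 reference read 5′ to 3′ on the strand that carries the match, and capitals mark the match.

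Col9a2 (chr4:120712738-120712767, plus strand): ccaggctccagcCAGACttccctgtcgccc
Col12a1 (chr9:79566963-79566992, minus strand): cccgccgcgtgcaCAGACagttagttaatg
Col13a1 (chr10:61439452-61439481, plus strand): aacgattccctcCAGACacggtgtctactc
Col16a1 (chr4:129727525-129727554, minus strand): cagcaaggccaggCAGACtgcctggtcaat
Col23a1 (chr11:51104161-51104190, plus strand): gaagtgtgtgctCAGACCcacagcctctgc
Col23a1 (chr11:51104230-51104259, minus strand): ggactgtttcaggCAGACtagccgtgggaa

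The peak at Col23a1 was the only one of these with the longer form. Away from 5′ ends, CAGACC was present in 4 peaks that lie in a collagen gene or have a collagen 5′ end as the nearest one. Their stretches are shown because they are the matches to the longer SMAD sequence for which a collagen gene is the closest candidate.

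Col6a1, E9.5, 24.4 kb upstream (chr10:76213171-76213200, minus strand): catgctccatagCAGACCtggattgagcac
Col6a1, same peak (chr10:76213343-76213372, minus strand): ctctggatcccaCAGACCttctcctcctta
Col6a3, E10.5, 5.39 kb upstream (chr1:92745917-92745946, minus strand): tgcaattaggagCAGACCacacagttgtga
Col5a3, E10.5, intron 4 (chr9:20612932-20612961, minus strand): tgctgggaaactCAGACCagaatcagcctg
Col20a1, E10.5, intron 25 (chr2:180743366-180743395, minus strand): gaggggcataggCAGACCactccacccaaa

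The shares of windows with each sequence are given for all peaks at collagen genes beside those of the list of the same stage. At E10.5, CAGAC was present in 27 of 52 windows (51.9%) and CAGACC in 8 (15.4%), compared with 53.2% and 19.7% of the whole list. GGCGCC was present in 2 of the 52 windows (3.85%), compared with 13.1% of the list. Both lay at the starts of other genes, Casd1 near Col1a2 and H2-Ke2 near Col11a2. At E9.5, CAGAC was present in 5 of 8 windows (62.5%) and CAGACC in 3 (37.5%), compared with 60.6% and 20.9% of the whole list. GGCGCC was present in none of the 8, compared with 12.6% of the list. With 8 windows, 1 window changes a share by 12.5 percentage points, and none of these differences was tested. The palindrome GTCTAGAC was found in no window at a collagen gene at either stage, and in 1.21% (E9.5) and 0.420% (E10.5) of the lists. These matches describe the letters in the windows and do not show where SMAD4 touches DNA.

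To determine how many collagen genes had SMAD4 bound nearby, peak centres were counted within 5 kb of the gene 5′ end, within 100 kb of it, and inside the gene body. No collagen gene had an E9.5 peak within 5 kb, where 2.64% of all protein-coding genes had one. A count of 0 among 43 genes allows a share of up to 6.98% when 3 genes are taken as the limit for a count of 0, and the upper end of the 95% Wilson interval is 8.20%. At E10.5, 6 of the 43 genes (14%, 95% Wilson interval 6.56% to 27.3%) had a peak within 5 kb, close to the 13% of all protein-coding genes. Within 100 kb, 7 genes (16.3%, interval 8.12% to 30%) had an E9.5 peak and 23 (53.5%, interval 38.9% to 67.5%) an E10.5 peak, and for all genes these shares were 20.5% and 52.9%. Inside the gene body, 2 genes (4.65%, interval 1.28% to 15.5%) had an E9.5 peak and 16 (37.2%, interval 24.4% to 52.1%) an E10.5 peak, compared with 4.71% and 15.9% of all genes. With a peak within 100 kb or in the body counted together, 8 genes (18.6%) were called at E9.5 and 25 (58.1%) at E10.5, against 21.2% and 53.7% of all genes. The intervals treat genes as independent and cover counting error only. With these definitions, the E10.5 share inside gene bodies was the one whose interval did not include the share of all genes. Other definitions moved the E10.5 gaps both ways. With only as many best-scored E10.5 peaks as at E9.5, 4 collagen genes (9.30%) had one in the body, against 6.76% of all genes. Within 5 kb, 2 (4.65%) had one, against 6.32%. At scores of 100 or more, 1 gene (2.33%) had one in the body, against 1.81%, and none within 5 kb, against 1.84%. For the counts by distance from a 5′ end, some definitions widened the gap. From the 5′ end of any annotated transcript, 13 collagen genes (30.2%) had a peak within 5 kb, against 15.5% of all genes. The starts added in this way lie inside the genes, so the added peaks are ones already counted in the body. Counting only peaks with the collagen 5′ end nearest, 15 (34.9%) had one within 100 kb, against 20.4%. This count also includes peaks in the body. Collagen genes had a median of 1 other protein-coding 5′ end within 100 kb, compared with 3 for all genes, and the part of this in the count was not tested.

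**Figure D1:**
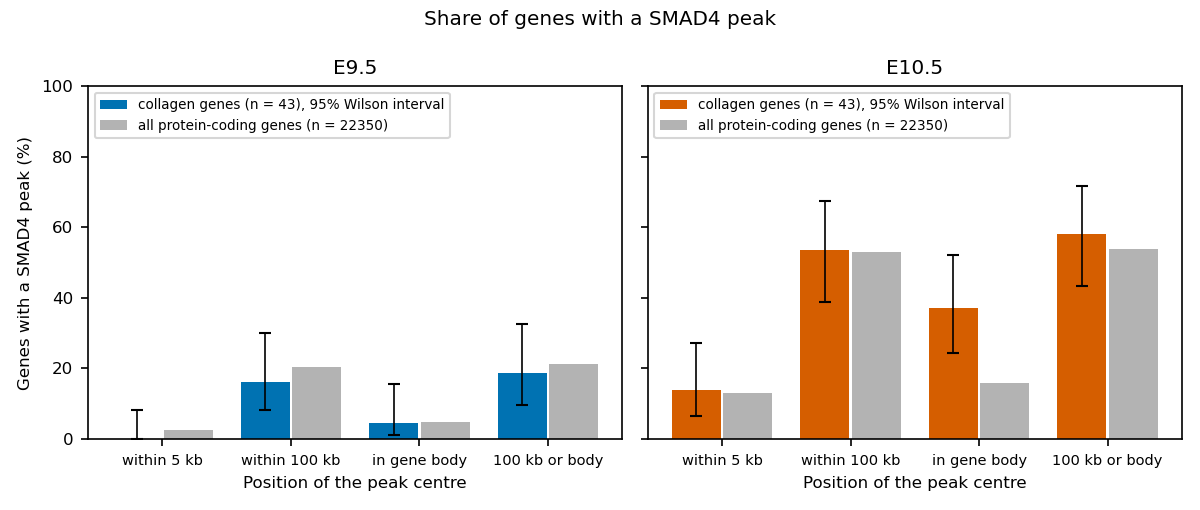
Share of the 43 collagen genes (coloured bars, with 95% Wilson intervals) and of all 22350 protein-coding genes (grey bars) with a SMAD4 peak centre at each position (x axis), in percent (y axis), for E9.5 and E10.5. The grey bar lies within the collagen interval at every position except inside gene bodies at E10.5, where the bars stand at 37.2% and 15.9%.

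Collagen genes are long, with a median length of 114 kb (7.11 to 419 kb) compared with 15.4 kb for all protein-coding genes, and longer genes hold more peaks. Of all genes of 200 kb or more, 40.6% had an E10.5 peak inside, whereas 8.92% of those under 20 kb did. When the shares of all genes in 5 length classes were weighted by the lengths of the collagen genes, the background inside the body rose from 15.9% to 28.6% at E10.5, and from 4.71% to 12.1% at E9.5. Both values lie inside the intervals of the collagen shares of 37.2% and 4.65%. Of the 15 genes under 50 kb, 7 had such a peak (2 of 4 under 20 kb, against 8.92% of all genes of that length, and 5 of 11, or 45.5%, between 20 and 50 kb, against 18.4%). Between 50 and 100 kb, 2 of 3 did (66.7%), against 26.3%. Among longer genes, 5 of 17 genes of 100 to 200 kb (29.4%) and 2 of 8 of 200 kb or more (25%) did. For all genes of these lengths the shares were 34.7% and 40.6%.

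**Figure D2:**
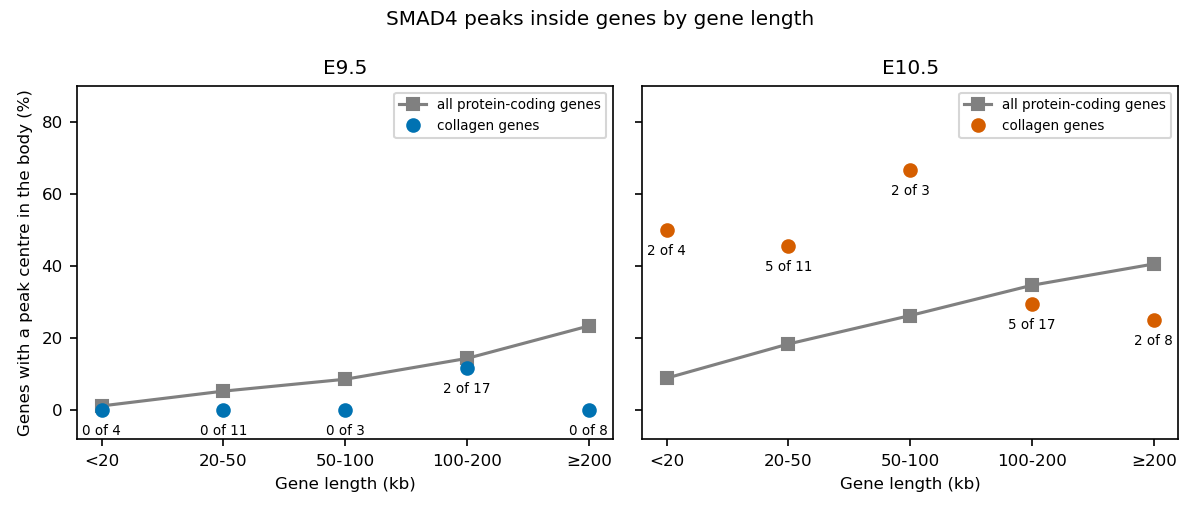
Share of genes with a SMAD4 peak centre inside the gene body (y axis, percent) by gene length class (x axis, kb), for all protein-coding genes (grey squares) and collagen genes (coloured circles, with the number called of the number in the class). The grey line climbs with gene length at both stages, and at E10.5 the collagen values are above it in the 3 classes under 100 kb and below it in the 2 classes from 100 kb on.

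The surroundings of the genes differed with the calls. The 25 collagen genes with an E10.5 peak within 100 kb or inside had a median length of 45.0 kb and a median of 3 other protein-coding 5′ ends within 100 kb. The 18 collagen genes without one had a median length of 138 kb and a median of 0 other 5′ ends, with at most 3. Among all protein-coding genes, those with an E10.5 peak had a median of 4 such neighbours and a median length of 16.3 kb, and those without had medians of 3 neighbours and 14.1 kb. Collagen genes with a peak were thus shorter than those without, whereas the medians of all genes lay in the opposite order. The part of gene length and neighbourhood in the calls was not tested.

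The 6 E10.5 peaks within 5 kb of a collagen 5′ end each cover that 5′ end, and in each case the collagen gene has the nearest protein-coding 5′ end. Col12a1 (chr9:79446798-79566638), a FACIT collagen of dense connective tissue, had the peak chr9:79565339-79568533, centred 0.298 kb upstream of its 5′ end (score 65.05, rank 2361 of 6185). The score is the value that the authors gave each peak, and a higher score ranks better within a list. Col9a2 (chr4:120711990-120727927) encodes a chain of type IX collagen, which coats the fibrils of cartilage. Its peak chr4:120710826-120714516 is centred in intron 1, 0.681 kb from the 5′ end (score 72.04, rank 1643). Col23a1 (chr11:51103422-51397420), a transmembrane collagen, had the peak chr11:51102937-51105445, also centred in intron 1 at 0.769 kb (score 63.06, rank 2615).

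Col1a1 (chr11:94797538-94814356) encodes the main chain of type I collagen, the collagen of bone, tendon and skin. The peak chr11:94797011-94800091 is centred in its intron 1, 1.01 kb from the 5′ end, and ranks low in the list (score 52.58, rank 4599). Col13a1 (chr10:61300984-61441856), a transmembrane collagen, had the broad peak chr10:61435478-61443384 of 7907 bp, centred in intron 1 at 2.42 kb (score 54.48, rank 4120). Col16a1 (chr4:129725084-129776527), a FACIT collagen, had the peak chr4:129724400-129730846, centred in intron 2 at 2.54 kb, which has the best score of the 6 (75.76, rank 1383). None of the 6 overlapped an E9.5 peak, and none reached a score of 100. The nearest E9.5 peaks to these 5′ ends were 40.9 kb away at Col12a1, 62.5 kb at Col9a2, 101 kb at Col13a1, 204 kb at Col1a1, 272 kb at Col16a1 and 678 kb at Col23a1. Just beyond the 5 kb limit lay the E10.5 peaks of Col6a3 (5.39 kb upstream, score 53.05) and Col5a3 (6.43 kb into the gene, score 53.67).

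**Figure D3:**
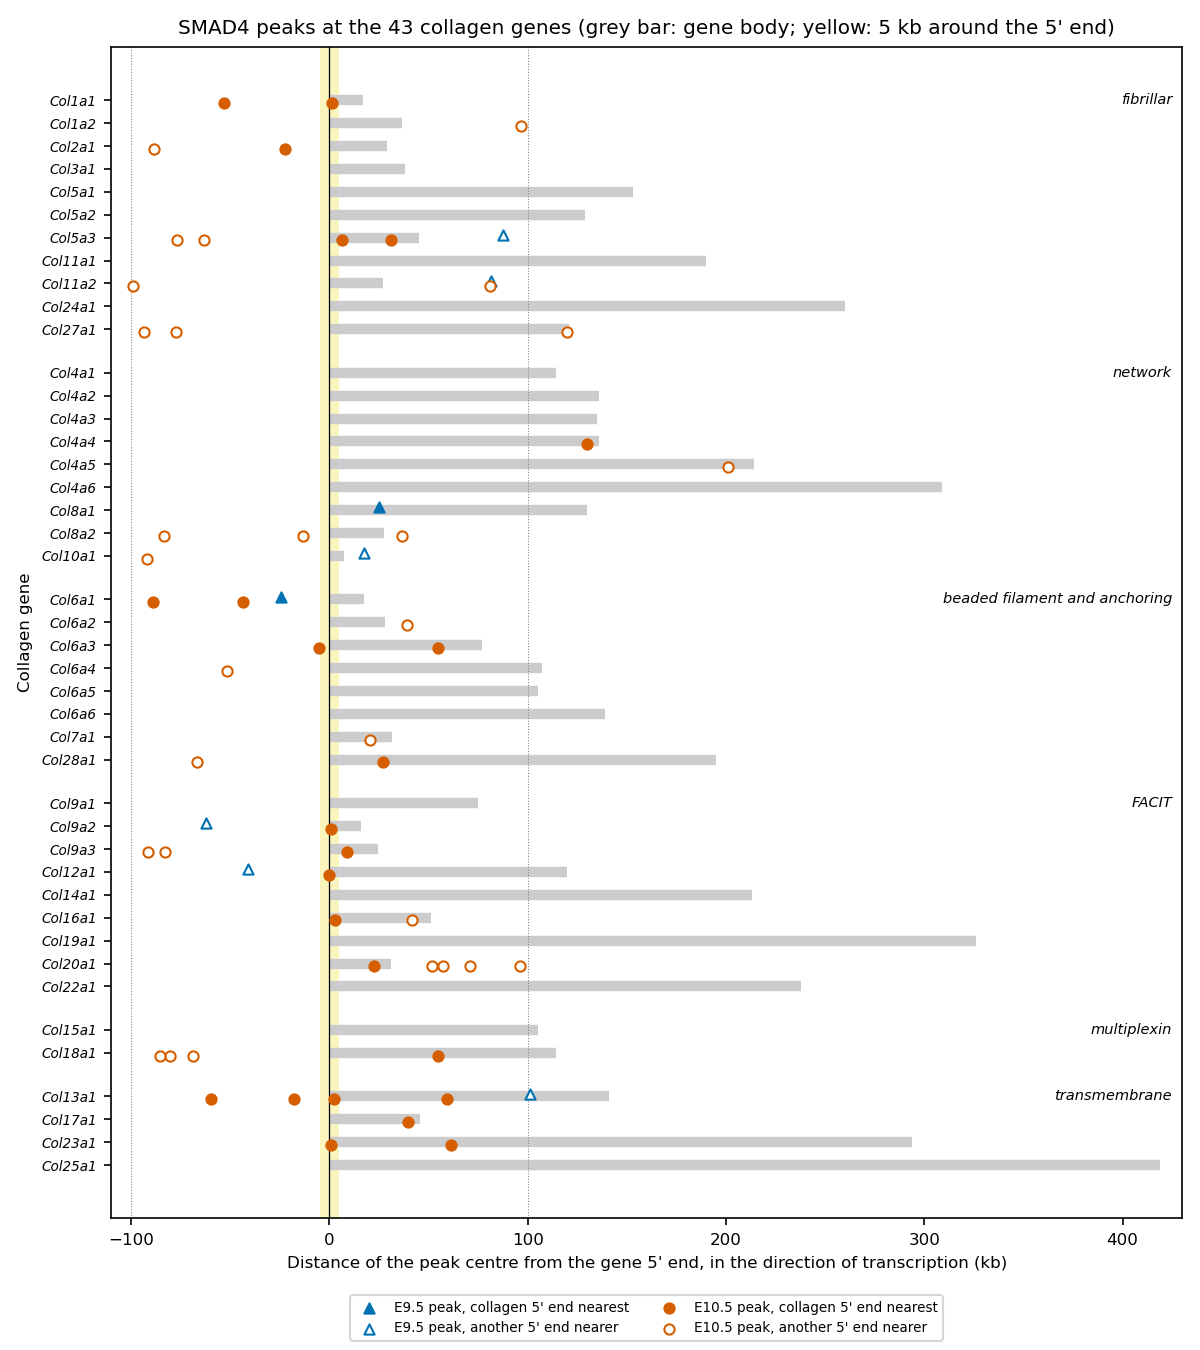
Position of every SMAD4 peak centre within 100 kb of the 5′ end or inside the body of the 43 collagen genes. The x axis is the distance from the gene 5′ end in kb along the direction of transcription, rows are genes by class, grey bars are gene bodies, triangles are the 8 E9.5 peaks and circles the 52 E10.5 peaks. Filled symbols mark peaks for which the collagen gene has the nearest protein-coding 5′ end, which holds for 2 E9.5 and 24 E10.5 peaks, and no triangle lies in the yellow band of 5 kb around the 5′ end.

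By class, 6 of 11 fibrillar collagen genes had an E10.5 peak within 100 kb, and 2 an E9.5 peak, where 52.9% and 20.5% of all genes had one. The counts of the other classes within 100 kb are read against the same shares and those within 5 kb against 2.64% (E9.5) and 13% (E10.5), and with 2 to 11 genes a class none was compared further. Col1a1 had a further E10.5 peak 53.3 kb upstream (score 68.65). For Col1a2, which encodes the other chain of type I collagen, the E10.5 peak in reach lay 96.4 kb downstream (score 101.68), at 0.366 kb from the 5′ end of Casd1. Col2a1, which encodes the type II collagen of cartilage, had an intergenic E10.5 peak 22.4 kb upstream, chr15:97855679-97859407, for which it is the nearest gene. This peak is among the lowest scored of its list (score 34.89, rank 6102). A second peak in reach of Col2a1, 88.5 kb upstream, lay at the start of Senp1 (score 71.24). The E9.5 peak nearest to Col2a1 was 1135 kb away. Col5a3 had 4 E10.5 peaks, of which 2 lay in its introns 4 and 41 (scores 53.67 and 55.42) and 2 lay 63.3 and 76.7 kb upstream, nearer to Angptl6 and Ppan (scores 65.36 and 53.48). Its E9.5 peak 87.6 kb downstream lay 0.745 kb from the 5′ end of Olfm2 (score 106.6, rank 179 of 2073). Col27a1 had 3 E10.5 peaks, and the one inside the gene, at 99.1% of its length, fell in its last exon (score 63.13). The others lay 77.3 and 93.7 kb upstream and nearer to Ambp (scores 68.68 and 63.60). Col11a2, a cartilage collagen, had an unshared E10.5 peak 99.0 kb upstream and nearer to H2-Ke2 (score 54.59). Its other peaks are described with the shared peaks below. No peak at either stage met the criteria at Col3a1, Col5a1, Col5a2, Col11a1 and Col24a1. Col3a1 and Col5a2, which are neighbours on chromosome 1, had their nearest peaks 1572 and 1763 kb away at E9.5 and 1865 and 2057 kb away at E10.5.

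Among the 9 network-forming collagens, 2 had a peak within 100 kb at E9.5 and 2 at E10.5, against 20.5% and 52.9% of all genes, and none had a peak within 5 kb, against 2.64% and 13%. The type IV genes lie in pairs on opposite strands with 5′ ends 0.021 kb (Col4a1 and Col4a2), 0.072 kb (Col4a3 and Col4a4) and 1.31 kb (Col4a5 and Col4a6) apart, and each pair therefore shares its upstream region. No peak of either stage lay within 100 kb of these shared starts. The nearest E10.5 peaks were 203 kb away for Col4a1 and Col4a2, and 130 kb for Col4a3 and Col4a4. That last peak lies in Col4a4 itself, in intron 45 (score 51.87), and Col4a5 held a peak in intron 50 (score 31.55, rank 6183 of 6185). Col8a1 (chr16:57624371-57754850), a short-chain collagen of vessel walls and the cornea, had the only peak of the family that was present at E9.5 while the gene had none at E10.5. The peak chr16:57729561-57730061 is 501 bp wide and lies in intron 1, 25 kb from the 5′ end (score 58.68, rank 889). The nearest E10.5 peak to Col8a1 was 485 kb away. Col8a2 had 3 E10.5 peaks outside the gene, including the best scored of all E10.5 peaks in reach of a collagen gene (168.02, rank 75), which is 36.8 kb from its 5′ end and 1.90 kb upstream of Adprhl2. The others lay 13.6 kb upstream, with Trappc3 nearest (score 57.27), and 83.6 kb upstream, with Thrap3 nearest (score 74.33). At Col10a1, which encodes the collagen of hypertrophic cartilage, the E9.5 peak lay 17.3 kb downstream of the 5′ end in an intron with the 5′ end of Nt5dc1 nearest (score 61.06), and the E10.5 peak 92.0 kb upstream, 0.609 kb from the 5′ end of Tspyl4 (score 100.41).

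Of the 8 beaded filament and anchoring collagen genes, 6 had an E10.5 peak within 100 kb and 1 an E9.5 peak. Col6a1, a chain of the type VI collagen that surrounds many mesenchymal cells, had the intergenic E9.5 peak chr10:76213040-76213583 at 24.4 kb upstream (score 54.84). Along with the peak in Col8a1, it is the only E9.5 peak whose nearest protein-coding 5′ end is that of a collagen gene. It had 2 E10.5 peaks further upstream, at 43.8 and 89.0 kb (scores 54.87 and 51.92). Col6a3 held an E10.5 peak in its exon 22 (score 58.75), Col7a1, the collagen of the anchoring fibrils of skin, held one in intron 79 (score 55.21), and Col28a1 one in intron 6 (score 49.00). The E10.5 peaks in reach of Col6a2 and Col6a4 were nearer to Ftcd and Glyctk. Col6a5 and Col6a6 had none at either stage.

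Of the 9 FACIT genes, 5 had an E10.5 peak within 100 kb, and 3 of these, Col9a2, Col12a1 and Col16a1, within 5 kb as described, where 13% of all genes had one. Col16a1 held a second peak in intron 57 (score 51.95). Col20a1 had 5 E10.5 peaks, the highest number in the family, and the one in its intron 25 (chr2:180741081-180745734) had the best score of all peaks inside a collagen gene (113.17, rank 314). The other 4 lay downstream of the gene, 51.6 to 96.1 kb from its 5′ end, with scores of 56.14 to 84.04, and each was nearer to the 5′ end of Chrna4. Col9a3, a further chain of type IX collagen, held the widest peak of the family, chr2:180336062-180346931 of 10870 bp, in intron 13 (score 57.97), while 2 more peaks lay 83.1 and 91.7 kb upstream and nearer to Ntsr1 (scores 50.70 and 45.10). Col9a1, Col14a1, Col19a1 and Col22a1 had no peak at either stage. Of the multiplexins, Col18a1, whose product is the source of endostatin, held a peak in intron 1 at 54.5 kb (score 56.01). This peak is centred 1.58 kb into a shorter protein-coding transcript of Col18a1 that starts 52.9 kb from the gene 5′ end. Its 3 other E10.5 peaks lay 69.0, 80.5 and 85.3 kb upstream (scores 53.69, 51.18 and 61.32), each nearer to Gm10941. Col15a1 had no peak. Of the transmembrane collagens, Col13a1 had 4 E10.5 peaks and Col23a1 2, and in all 6 cases no other protein-coding 5′ end was nearer. Besides the 2 inside Col13a1, peaks lay 17.8 and 59.6 kb upstream of it (scores 52.85 and 58.29), and the second peak of Col23a1 lay in intron 2 at 61.3 kb (score 53.06). Col17a1, a collagen of hemidesmosomes, held a peak in intron 41 (score 66.90), and Col25a1 had none.

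In total, 17 of the 43 genes (39.5%) had no peak within 100 kb or inside at either stage, compared with 40.4% of all protein-coding genes. Besides those named above as without a peak, they are Col4a1, Col4a2, Col4a3 and Col4a6. The median distance from a collagen 5′ end to the nearest peak was 272 kb at E9.5 (17.3 to 2237 kb) and 92.0 kb at E10.5 (0.298 to 2057 kb), and for all genes these medians were 350 and 87.8 kb.

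To compare the stages, the 7 collagen genes with peaks in both lists were considered, which are 16.3% of the family, compared with 15.3% of all genes. Within 100 kb alone there were 6 such genes (against 14.7% of all genes), inside the body there was 1 (against 2.21%) and within 5 kb there was none (against 1.30%). Overlap between the peaks of the stages was found at only 1 of the 7. Of the 3425 genes with peaks at both stages, 1254 (36.6%) had such a pair. The pair in reach of Col11a2 consists of chr17:34255149-34260177 at E9.5 (score 64.28, rank 620) and chr17:34254626-34260205 at E10.5 (score 112.07, rank 327). It lies 81.3 and 81.0 kb from the 5′ end of Col11a2 but only 1.60 and 1.85 kb from that of Brd2, in whose untranslated region the centres fall, and the E9.5 peak held the CAGAC match shown next.

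Col11a2 and Brd2, E9.5 (chr17:34257641-34257670, minus strand): taatttacttgccCAGACgtgcacacctgt

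At the other 6 genes the closest peaks of the stages were apart by 16.3 kb (Col6a1), 36.2 kb (Col13a1), 38.6 kb (Col12a1), 52.0 kb (Col5a3), 61.1 kb (Col9a2) and 108 kb (Col10a1). Of these genes, Col13a1 was the only one with a peak inside the gene at both stages. Its E9.5 peak chr10:61338639-61343429 lies 101 kb from the 5′ end in intron 18 (score 53.09), and its E10.5 peaks lie in introns 1 and 3, the latter at 59.2 kb (score 70.69). At Col12a1 and Col9a2, the E9.5 peaks in reach were nearest to Cox7a2 (at 0.123 kb from its 5′ end, score 53.03) and Zfp69 (score 59.15), whereas the E10.5 peaks covered the collagen 5′ ends. The stage lists differ in length, and when the E10.5 list was restricted to its 2073 best-scored peaks, 2 collagen genes kept a peak within 5 kb and 13 within 100 kb, against 6.32% and 28% of all genes, and 4 had one in the body, against 6.76%. Counts also fell with a stricter score. With peaks scored 100 or more, no collagen gene had an E10.5 peak within 5 kb (1.84% of all genes), 5 had one within 100 kb (8.77%) and 1 in the body (1.81%), while 1 had an E9.5 peak within 100 kb (3.04%) and none in the body (0.649%). Counting only peaks nearest to the collagen gene left 2 genes (4.65%) within 100 kb at E9.5, against 6.82% of all genes, and a limit of 50 kb left 4 at E9.5, against 11.4%. Measured from the 5′ end of any annotated transcript, 1 gene (2.33%) had an E9.5 peak within 5 kb, against 3.21%.

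The 8 E9.5 and 52 E10.5 peaks at collagen genes were each counted for 1 collagen gene only. At E9.5 their widths fell into separate ranges, with 5 peaks of 342 to 758 bp and 3 of 4399 to 5029 bp, and the median was 651 bp compared with 1244 bp for the whole list. At E10.5 the median width was 3710 bp (963 to 10870 bp), compared with 2552 bp for the whole list and 2712 bp for all peaks inside protein-coding genes. The 20 E10.5 peaks inside collagen genes had a median width of 4172 bp. Scores had medians of 58.9 for the earlier and 58.1 for the later stage, compared with 56.3 and 59.8 for the lists. A score of 100 or more was held by 1 of the 8 E9.5 peaks, which lies at Olfm2, and by 5 of the 52 E10.5 peaks (9.62%), compared with 8.44% of that list. Of these 5, the peak in Col20a1 was the only one inside a collagen gene. Among the E10.5 peaks, 1 of 52 (1.92%) overlapped an E9.5 peak, compared with 6.26% of the list.

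**Figure D4:**
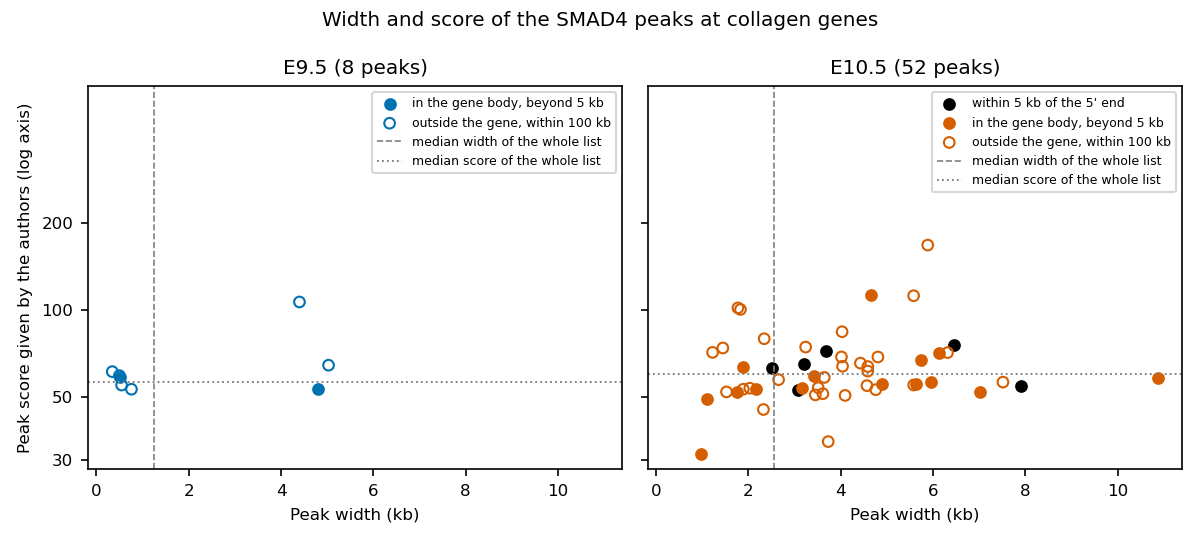
Width (x axis, kb) and score given by the authors (y axis, log scale) of each SMAD4 peak at a collagen gene, by position relative to the gene, for E9.5 (8 peaks) and E10.5 (52 peaks). Dashed and dotted lines are the median width and score of the whole list. The E10.5 peaks within 5 kb of a 5′ end (black) have scores of 52.58 to 75.76, on both sides of the median score of 59.8. Their ranks run from 1383 to 4599 of 6185.

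The 20 E10.5 peaks inside collagen genes lay mostly in introns. Their centres fell into an intron in 18 cases (90%), into a coding exon in 1 (Col6a3) and into an untranslated region in 1 (Col27a1), whereas of the 4167 E10.5 peaks inside protein-coding genes 62.8% were intronic. Exons made up a median of 14.2% of the bases of these peaks, compared with 16.8% for all peaks inside genes. Along the gene, 5 of the 20 (25%) were centred in the first 10% of its length and 9 (45.0%) beyond its midpoint, and for genes of 10 kb or more these shares were 38.0% and 37.8%. The windows at their centres had a median GC content of 51.8% and an observed to expected CpG ratio of 0.210, compared with 56.3% and 0.375 for all E10.5 peaks inside genes. Outside the collagen genes, 24 of the 32 E10.5 peaks lay upstream of the 5′ end and 8 downstream. Outside peaks count only within 100 kb of the 5′ end, so a gene of 100 kb or more can have none downstream. This holds for the 17 collagen genes of 100 to 200 kb and the 8 of 200 kb or more. The split therefore partly follows from the rule, and it was not compared with all genes. Of the 32 peaks, 24 were nearer to the 5′ end of another protein-coding gene. For 6 of the 25 collagen genes with an E10.5 peak, namely Col1a2, Col6a2, Col6a4, Col8a2, Col10a1 and Col11a2, every peak in reach was of this kind (24%), compared with 6723 of the 11991 protein-coding genes with an E10.5 peak (56.1%). At E9.5 this held for 5 of 8 collagen genes (62.5%) and 61.6% of all genes. Gene length and the number of neighbouring 5′ ends also differed between collagen genes and all genes, as given above, and their part in these shares was not tested.

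Genes that act on collagens were examined in the same way. Their counts are read against the shares of all protein-coding genes, which were 2.64% (E9.5) and 13% (E10.5) within 5 kb and 20.5% and 52.9% within 100 kb, and no difference from these was tested. Of 16 chaperones and modifying enzymes found in the annotation, which hydroxylate, glycosylate and fold the chains, none had an E9.5 peak within 5 kb and 4 had one at E10.5. These were Crtap and Leprel2, which belong to prolyl 3-hydroxylation, Plod1, a lysyl hydroxylase, and Serpinh1, the collagen chaperone HSP47. Within 100 kb, 4 had a peak at E9.5 and 12 at E10.5. Plod1 had 3 E10.5 peaks inside the gene, at 1.61, 10.4 and 13.6 kb (scores 82.06, 53.77 and 72.35), and Serpinh1 had 2, at 1.06 and 6.45 kb (scores 51.04 and 53.78). The best-scored peaks in reach of this group were 61.54 at E9.5, near Lepre1 but closer to Ybx1, and 156.94 at E10.5, 59.1 kb upstream of Leprel2 but closer to A230083G16Rik.

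Of the 13 genes of processing and cross-linking, 1 had an E9.5 peak within 5 kb and 3 an E10.5 peak, and within 100 kb these numbers were 4 and 10. Loxl3, a lysyl oxidase-like enzyme, was the only gene of all these lists with a peak within 5 kb at both stages. Its peaks chr6:82979518-82984974 (E9.5, score 71.54) and chr6:82979025-82986562 (E10.5, score 65.73) overlap and are centred 1.92 and 1.37 kb upstream, although the 5′ end of Dok1 is nearer. Lox, the founding lysyl oxidase that cross-links collagen and elastin, had the best E10.5 score of the group (121.03, rank 240), centred 0.776 kb into the gene, and no E9.5 peak in reach. Loxl1 had the best at E9.5 (88.73), 17 kb into the gene, and no E10.5 peak in reach. Adamts14, which removes the N-terminal propeptide of fibrillar collagens, had an E10.5 peak at 1.56 kb (score 62.80).

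Of 9 fibril-associated proteins, none had a peak within 5 kb at E9.5 and 1 had one at E10.5, and within 100 kb these were 2 and 6. The E10.5 peak near the start of Fbn2, which encodes a microfibril protein, had the best score of this group (97.69, 0.429 kb upstream). The best at E9.5 (82.64) lay 46.0 kb from Sparc, overlapped an E10.5 peak and was nearer to Fat2. Of 7 collagen receptors, none had a peak within 5 kb at E9.5 and 1, the integrin subunit gene Itgb1, had one at E10.5 (0.189 kb from the 5′ end, score 56.00), and 1 and 3 had a peak within 100 kb. The best-scored peaks in reach of the receptors were 60.73 near Itga11 at E9.5 and 72.06 near Itga10 at E10.5, both closer to other genes.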

How the data were processed

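SMAD4-3xFLAG ChIP and input samples of mouse limb buds (8 samples, 2 per group) were processed by the authors. Per the labels and the methods of the study, reads were aligned to mm9 with Bowtie 1.1.0, peaks were called with MACS 1.4 against input in each replicate, and replicates were combined with MSPC, which kept replicated peaks with their best p-value. The deposited lists hold 1 score per merged peak with no named unit, which was used here only to rank and select peaks within a list. Because calling was permissive and depth is unknown, list length and peak width could follow depth, which was not tested.

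Peaks were assigned to genes of GENCODE vM1 (mm9) by peak centre (Python 3.11.15 and pandas 2.3.3 for tables, NumPy 2.4.6, SciPy 1.17.1 for intervals, Matplotlib 3.10.9 for plots), after the rules had been tested on simulated data. Coordinates are 1-based. The 30 protein-coding genes on other chromosomes were left out. A gene 5′ end is the outermost annotated start, and exons and introns are numbered in the transcript with the longest coding sequence. Peaks overlapping by at least 1 bp were called shared. No test was run, since each stage is 1 merged list. Mia3 was not found in the annotation. Genes are named with full values if they have a peak within 5 kb at either stage, peaks at both stages, 1 of the 5 best scores per stage or at least 3 peaks at a stage, and for the accompanying lists if they have a peak within 5 kb at both stages or the best score. Further genes were named after their values were seen. The collagen genes and the lists were chosen with earlier results of these data known. Alternatives covered the reference point, distances, overlap, score, list length and window.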

Additional observations from a re-analysis of the deposited data

How the results depend on the processing

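No paired analysis was possible because the replicates of a stage had been merged into 1 list, and for the same reason no replicate could be left out. Of 35 recomputed counts, 22 stayed within 1.5 times the reported one and 13 did not. Some of the 22 are counts of 0 that stayed 0, and a shorter distance or stricter score cannot change such a count. With the 5′ end of any annotated transcript as reference, 1 collagen gene had an E9.5 peak within 5 kb (Col13a1) and 13 an E10.5 peak, against 3.21% and 15.5% of all protein-coding genes. The added starts lie inside the genes and mostly belong to transcripts without a coding sequence. With only peaks scored 100 or more, the counts within 5 kb were 0 at both stages, against 0.716% (E9.5) and 1.84% (E10.5) of all genes, those within 100 kb 1 and 5, against 3.04% and 8.77%, and those in the gene body 0 and 1, against 0.649% and 1.81%. At these shares, counts of 0 or 1 among 43 genes say little about the collagen genes. With as many best-scored E10.5 peaks as at E9.5, the counts were 2 within 5 kb, 13 within 100 kb and 4 in the body. For all genes these shares were 6.32%, 28% and 6.76%. With 50 kb in place of 100 kb, 4 genes had an E9.5 peak, against 11.4% of all genes. With only peaks whose nearest protein-coding 5′ end is that of the collagen gene, 2 (E9.5) and 15 (E10.5) genes had one within 100 kb, against 6.82% and 20.4%. The reported single shared pair stayed shared with a reciprocal overlap of 50% and with centres within 250 bp.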

Other observations

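Col26a1 falls outside the naming rule because the annotation lists it under the older symbol Emid2 (chr5:137217629-137359079), and it was looked up after the other values had been seen. An E10.5 peak was centred 0.548 kb from its 5′ end, and the nearest E9.5 peak was 316 kb away.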
